A study of Mus musculus with 13 samples.

Results

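Fibroblasts of hyperplastic Wnt1 mammary glands were compared with fibroblasts of normal virgin glands by droplet single-cell RNA sequencing of transcript 3′ ends. The normal libraries came from C57BL/6 wildtype females at puberty (4 weeks) and as virgin adults (9 weeks), with 2 females per condition, and were sorted as Lineage-negative, CD24-negative stromal cells. Hyperplasia 1 (45 weeks) and hyperplasia 2 (17 weeks) came from 2 females of the raGFP-Wnt1 strain, on a mixed background of C57BL/6 and FVB, which carried Pdgfra-GFP KI/+ and MMTV-Wnt1 T/+, and were sorted as GFP+ cells. Each of these mice also carried a tumour whose library is used below for reference. The MMTV promoter drives the Wnt1 transgene in mammary epithelium, and the reporter places GFP in cells that use the Pdgfra promoter. Each normal stage is 1 library, so the spread of the normal group holds the difference between stages. Genotype, strain, sort and age differ together between the groups and cannot be told apart.

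A barcode was taken as a fibroblast when it had 500 to 7500 genes, at most 10% mitochondrial UMIs (unique molecular identifiers, 1 per captured transcript), at least 50 UMIs of Dcn, Lum and Col1a2 per 10000, and no UMI of Epcam, Pecam1, Rgs5, Sox10, Ptprc or Myog. This left 33100 fibroblasts of the 100523 that the same rule found in all 13 libraries: 7121 in puberty, 11951 in the adult, 6044 in hyperplasia 1 and 7984 in hyperplasia 2. They held 48727126, 73843100, 56498060 and 72427500 UMIs in the same order. Medians per cell were 6663 and 5805 UMIs in the normal libraries and 8703 and 8311.5 in hyperplasia. No pair of the 4 libraries shared more than 0.477% of the smaller set of barcodes. Levels are in CPM, the UMIs of a gene summed over the fibroblasts of a library and scaled to a total of 1000000 UMIs. Such a sum cannot tell a change in the share of a fibroblast state from a change within cells. Below, paired values are in the order puberty and adult, or hyperplasia 1 and hyperplasia 2.

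Fibroblasts build and remodel the connective tissue around mammary ducts, and they signal to the epithelium through secreted ligands. In the mouse gland a Pi16+ Dpp4+ progenitor state and several specialised states are distinguished, among them Crabp1+ cells that remodel the extracellular matrix (ECM). Wnt1 is a secreted ligand of the canonical Wnt pathway: receptor binding stabilises beta-catenin, which switches on targets such as Axin2 together with TCF/LEF factors. Overexpression of Wnt1 in mammary epithelium gives ductal hyperplasia and later carcinomas.

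Of 16302 genes tested with limma-voom in 1 fit of 6 libraries (normal virgin, hyperplasia and tumour), 2280 (14.0%) passed an adjusted p of 0.05. Among them 1255 genes (7.70%) rose in hyperplasia and 1025 (6.29%) fell. Outside the range of all 9 wild-type libraries of the series, which add pregnancy, lactation, involution, placebo and hormone-treated glands, were 1163 (7.13%). The placebo libraries came from glands of 9 weeks, the age of the adult library. The normal and hyperplasia libraries did not overlap for 70.6% of genes, so non-overlap alone carries little information here. The number of calls moved with the libraries in the fit. It was 4810 with the 4 compared libraries alone, and 4810 and 4799 without tumour 1 or 2. It was 183 without the adult, 8 without puberty, and 2 and 1 without hyperplasia 1 or 2. Leaving out a compared library left 1 in its arm, assumed to vary like the other groups, and lowered the 3 residual degrees of freedom. In these 4 fits all of the 2280 genes that could be fitted, 2275 to 2280, kept their direction. The genes were called from these same libraries, so this is no independent check. With all 9 wild-type libraries as the reference group, 842 genes passed. The gene lists that follow were named with earlier results of these data known, so each count is a description to be read against these shares. Counts are from the fit of 6 libraries unless another is named.

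**Figure D1:**
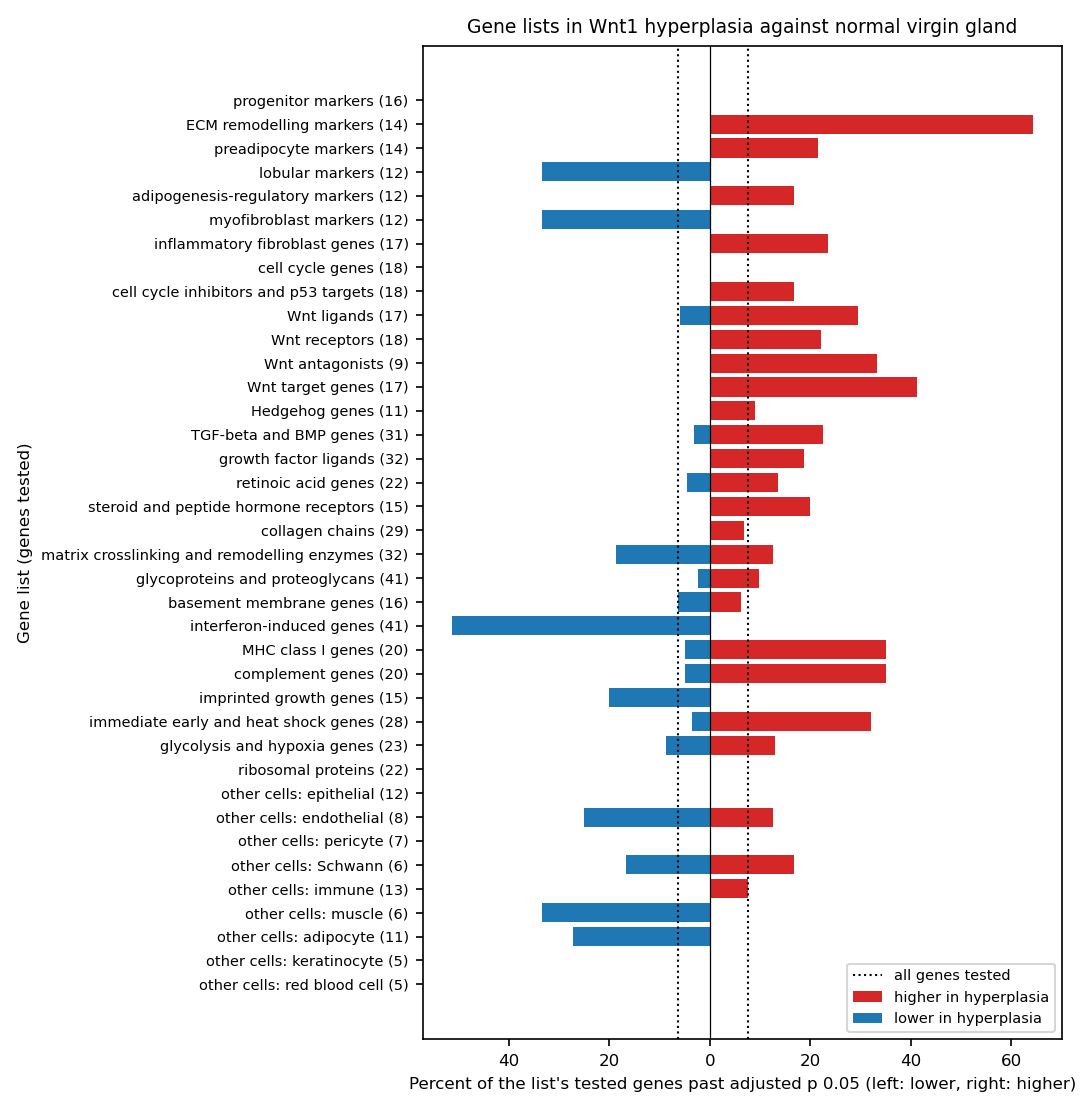
Percent of each list's tested genes (number in brackets) that passed an adjusted p of 0.05, with bars to the right for genes higher in hyperplasia and to the left for genes lower; dotted lines mark the shares over all genes tested, 7.70% and 6.29%. ECM remodelling markers and Wnt target genes extend to the right and interferon-induced genes to the left of these lines.

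The barcode rule did not use Pdgfra, but hyperplasia cells were sorted by its reporter, so it checks the fibroblast label in the normal libraries alone. Pdgfra, the receptor that marks mammary fibroblasts and one allele of which carries the reporter in hyperplasia, had 199 and 268 CPM in the normal libraries and 248 and 249 CPM in hyperplasia (log2 fold change 0.07 ± 0.24 SE, adjusted p = 0.852). The hyperplasia values lay between the normal ones. Other wild-type libraries ran from 218 to 622 CPM of Pdgfra, with placebo 1 and 2 at 428 and 350 CPM. With all 9 wild-type libraries as reference its log2 fold change was -0.58. Of the lists of other cell types, 12 of 24 epithelial, 7 of 8 pericyte and 13 of 17 immune genes were testable, and their summed levels, with Epcam, Rgs5 and Ptprc set to 0 by the rule, were 63.9 and 94.6 CPM in puberty and the adult and 53.7 and 99.9 CPM in hyperplasia 1 and 2, 63.6 and 35.9 CPM in puberty and the adult and 52.2 and 37.3 CPM in hyperplasia 1 and 2, and 8.58 and 7.50 CPM in puberty and the adult and 12.2 and 14.1 CPM in hyperplasia 1 and 2. None of these epithelial or pericyte genes passed the limma-voom test or edgeR; at an unadjusted p under 0.05 there were 1 and 2, and by DESeq2 0 and 2. With the 4 libraries alone 1 epithelial gene was called higher and 2 lower, 1 pericyte gene higher and 1 lower, and 1 keratinocyte gene higher. Among the other lists 1 of 8 endothelial genes rose and 2 fell, 1 of 6 Schwann genes rose and 1 fell, 2 of 6 muscle and 3 of 11 adipocyte genes fell, 1 of 13 immune genes rose, and 0 of 5 keratinocyte and 0 of 5 red blood cell genes passed (0 unadjusted for both; 0 and 4 by DESeq2, 0 by edgeR), the last list summing to 48.5 CPM in puberty and at most 0.176 CPM in the adult and both hyperplasia libraries. Adipocyte genes summed to 907 and 759 CPM in puberty and the adult and 1409 and 1253 CPM in hyperplasia 1 and 2, higher in both hyperplasia libraries. Keratinocyte genes summed to 203 and 236 CPM in puberty and the adult and 212 and 576 CPM in hyperplasia 1 and 2, highest in hyperplasia 2. Epcam, Pecam1, Rgs5, Sox10, Ptprc and Myog are at 0 by the rule. Before that rule, 140 and 71 normal barcodes had a UMI of Rgs5, a pericyte gene, against 13 and 10 in hyperplasia, and 109 and 6 had one of Myog, a muscle gene, against 0 and 0. Wnt1 itself was near the limit of detection in these stromal cells, at 0.882 and 0.785 CPM in normal and 0.602 and 1.48 CPM in hyperplasia (43 and 58 and 34 and 107 UMIs; log2 fold change 0.21 ± 0.49 SE, adjusted p = 0.791).

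Of the 14 ECM remodelling markers 9 rose and none fell by limma-voom, edgeR, DESeq2 or an unadjusted p under 0.05, with a median log2 fold change of 2.02 against -0.01 over all genes tested. Crabp1, which encodes a cytoplasmic retinoic acid-binding protein (chromosome 9, 54764748 to 54773110, GRCm38), stood at 8.02 and 19.8 CPM in the normal libraries and 354 and 360.0 CPM in hyperplasia (log2 fold change 4.74 ± 0.40 SE, adjusted p = 0.00629). Both hyperplasia libraries were far above both normal ones, and the 7 other wild-type libraries reached 92.4 CPM. Pla2g7, a secreted phospholipase that degrades platelet-activating factor, had 1.25 and 13.2 CPM in normal and 145 and 132 CPM in hyperplasia (log2 fold change 4.83 ± 0.82 SE, adjusted p = 0.0234). Unlike Crabp1, at 237 and 365 CPM in the tumours of the same mice, Pla2g7 stood at 17.6 and 16.7 CPM there. Enpp2 (autotaxin, which makes lysophosphatidic acid) had 50.4 and 122 against 601 and 478 CPM, a log2 fold change of 2.75 ± 0.66. Mme, the membrane peptidase neprilysin, had 24.8 and 61.6 against 217 and 176 CPM (log2 fold change 2.29 ± 0.39). The matrix protease Mmp3 and the collagen crosslinker Lox rose less, by 1.33 ± 0.28 and 1.28 ± 0.21 on the log2 scale, from 308 and 537 to 1156 and 937 CPM and from 157 and 124 to 366 and 333 CPM. Hyperplasia exceeded normal in every library for these genes, yet the other wild-type libraries reached 2204 CPM for Mmp3 and 717 CPM for Lox, above hyperplasia. Tnc, the matrix glycoprotein tenascin C, had 536 and 603 UMIs in normal against 8466 and 6190 UMIs in hyperplasia and missed the threshold (adjusted p = 0.0517). Of the 9 calls, 6 lay outside all 9 wild-type libraries. Genes of the list called higher numbered 5 without the adult, 2 without puberty, and 0 and 0 without hyperplasia 1 or 2, and 3 with all 9 wild-type libraries as reference.

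Single cells gave the same direction for Crabp1. Median depths of the cells used were 6923 and 6010 UMIs in normal and 8754.5 and 8536 UMIs in hyperplasia. With each cell thinned to 2000 UMIs, 0.733% and 3.33% of normal fibroblasts had a Crabp1 UMI, against 27.9% (95% exact interval 26.8 to 29.1) and 28.4% (27.4 to 29.4) in hyperplasia. Without thinning the shares were 1.38%, 5.92%, 40.6% and 38.1%. These intervals cover counting error only, and an exact permutation test of 2 libraries against 2 cannot give a p below 1/3. In barcodes below the fibroblast gene limit the shares were 0% and 0.283% in normal and 23.2% and 17.4% in hyperplasia, at median depths of 3828, 3447, 4232 and 5271 UMIs. These barcodes were not typed. Among cells with a Crabp1 UMI the mean was 1.90 and 1.54 UMIs in normal and 2.89 and 3.13 in hyperplasia, so both the share and the level per positive cell were higher. Pla2g7 was seen in 0.269% and 3.04% of normal cells and 21.1% and 19.9% of hyperplasia cells, and Lox in 21.2% and 17.2% against 39.6% and 38.7%. The corresponding shares below the fibroblast gene limit were 1.37%, 2.55%, 7.37% and 6.77% for Pla2g7 and 4.38%, 2.83%, 14.7% and 8.06% for Lox. Without thinning, fibroblast shares were 0.758%, 4.73%, 35.2% and 32.4% for Pla2g7 and 43.6%, 33.5%, 63.9% and 63.2% for Lox.

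Pi16 and Ly6a, 2 of the 16 progenitor markers, were seen in fewer hyperplasia cells, as were Cd34, Sema3c and Dpp4. In the summed levels 8 of the 16 had a positive log2 fold change. Pi16, a peptidase inhibitor that marks the progenitor state, was seen in 55.8% and 54.2% of normal and 26.6% and 31.7% of hyperplasia fibroblasts. Ly6a, which encodes the surface protein Sca-1, was seen in 93.3% and 88.2% against 49.2% and 55.3%. The hyperplasia shares were lower in both libraries for both genes. Cd34 was seen in 73.4% and 74.4% of normal and 52.9% and 52.8% of hyperplasia fibroblasts. For Sema3c the shares were 38.6% and 36.6% against 24.5% and 27.1%, and for Dpp4 28.3% and 28.1% against 22.5% and 23.7%. Barcodes below the fibroblast gene limit had Pi16 in 3.84%, 9.07%, 4.21% and 5.48% and Ly6a in 11.6%, 22.7%, 9.47% and 6.77%. Without thinning, fibroblast shares were 65.1%, 65.1%, 36.9% and 40.2% for Pi16 and 95.1%, 90.8%, 64.8% and 65.7% for Ly6a. Pi16 was rarer among cells with a Crabp1 UMI, at 12.2% and 20.2% in normal and 4.51% and 6.23% in hyperplasia. In the summed levels 0 of 16 progenitor markers passed the limma-voom test (2 at an unadjusted p under 0.05, 0 by edgeR and 2 by DESeq2), while 3 rose and 6 fell in the fit of the 4 libraries alone, with a median of -0.16. Pi16 had 1274 and 1499.7 CPM in normal and 750.3 and 1058 CPM in hyperplasia (log2 fold change -0.67 ± 0.73 SE, adjusted p = 0.546). Ly6a missed the threshold, at 3313 and 3644 against 747 and 1095 CPM (log2 fold change -1.98 ± 0.51 SE, adjusted p = 0.0505). Cd34, a sialomucin of progenitors, had 831 and 885 against 595 and 663 CPM (adjusted p = 0.6). Dpp4, a surface peptidase of the same cells, had 205 and 214 against 219.9 and 230.4 CPM.

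Other fibroblast states were described by their own lists. Of 12 lobular markers 4 fell and none rose by limma-voom, edgeR, DESeq2 or an unadjusted p under 0.05, with a median of -1.58. Cilp, a cartilage matrix protein, had 288 and 392 CPM in normal and 134 and 74.6 CPM in hyperplasia (log2 fold change -1.77 ± 0.33 SE, adjusted p = 0.0278), while the tumours had 974 and 713 CPM. Adamtsl2, a matrix glycoprotein that binds latent TGF-beta-binding proteins, had 13.01 and 14.7 against 3.54 and 1.05 CPM (log2 fold change -2.94 ± 0.46 SE, adjusted p = 0.0199). The TGF-beta co-receptor Eng (endoglin) had 58.3 and 58.0 against 30.8 and 23.4 CPM. The normal libraries lay above both hyperplasia libraries for all 3 genes. Thbs4 (thrombospondin 4) had 226 and 284 against 94.6 and 14.3 CPM and did not pass (adjusted p = 0.0638). Bmp5 had 5.77 and 9.59 against 10.1 and 3.81 CPM (adjusted p = 0.782). Counts of lobular markers called lower were 0 without the adult, 0 without puberty, and 1 and 0 without hyperplasia 1 or 2, and 3 with all 9 wild-type libraries as reference.

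Among 14 preadipocyte markers 3 rose, all of them transcription factors of adipogenesis, and none fell by limma-voom (2 at an unadjusted p under 0.05, 1 by edgeR, 1 by DESeq2 and 1 with the 4 libraries alone). Cebpb (chromosome 2, 167688915 to 167690418) had 55.7 and 60.8 CPM in normal and 1129 and 967 CPM in hyperplasia, the smallest adjusted p of the named genes (log2 fold change 4.13 ± 0.16 SE, adjusted p = 0.00126). It still passed when any 1 of the 4 libraries was left out, and was then the 1 call of the list that rose. The other wild-type libraries ran from 48.5 to 1086 CPM, a range that held hyperplasia 2 and ended just below hyperplasia 1. Placebo 1 and 2, of 9 weeks like the adult, had 544 and 1043 CPM. Cebpb did not pass with all 9 wild-type libraries as reference (1 other marker rose and 1 fell there). Cebpa had 8.91 and 9.85 against 35.4 and 32.1 CPM (log2 fold change 1.81 ± 0.20). Pparg had 12.4 and 11.1 against 20.1 and 20.01 CPM (log2 fold change 0.75 ± 0.15). Other wild-type libraries reached 21.7 CPM of Cebpa, below hyperplasia, and 23.9 CPM of Pparg, above it. Placebo 1 and 2 had 23.2 and 19.8 CPM of Pparg. Fabp4 and Cd36, lipid carriers of committed preadipocytes, gave 279.6 and 295 against 77.1 and 219 CPM and 18.7 and 13.4 against 9.86 and 17.8 CPM, with adjusted p = 0.125 and 0.643. Of 12 adipogenesis-regulatory markers 2 rose: F3 (tissue factor), from 40.2 and 17.8 to 98.1 and 78.7 CPM, and the complement component C7, from 1.11 and 2.23 to 11.04 and 13.4 CPM. Other wild-type libraries reached 97.0 CPM of F3 and 43.8 CPM of C7. The limma-voom count for this list was 0 with any 1 of the 4 libraries left out, and 0 with all 9 wild-type libraries as reference.

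**Figure D2:**
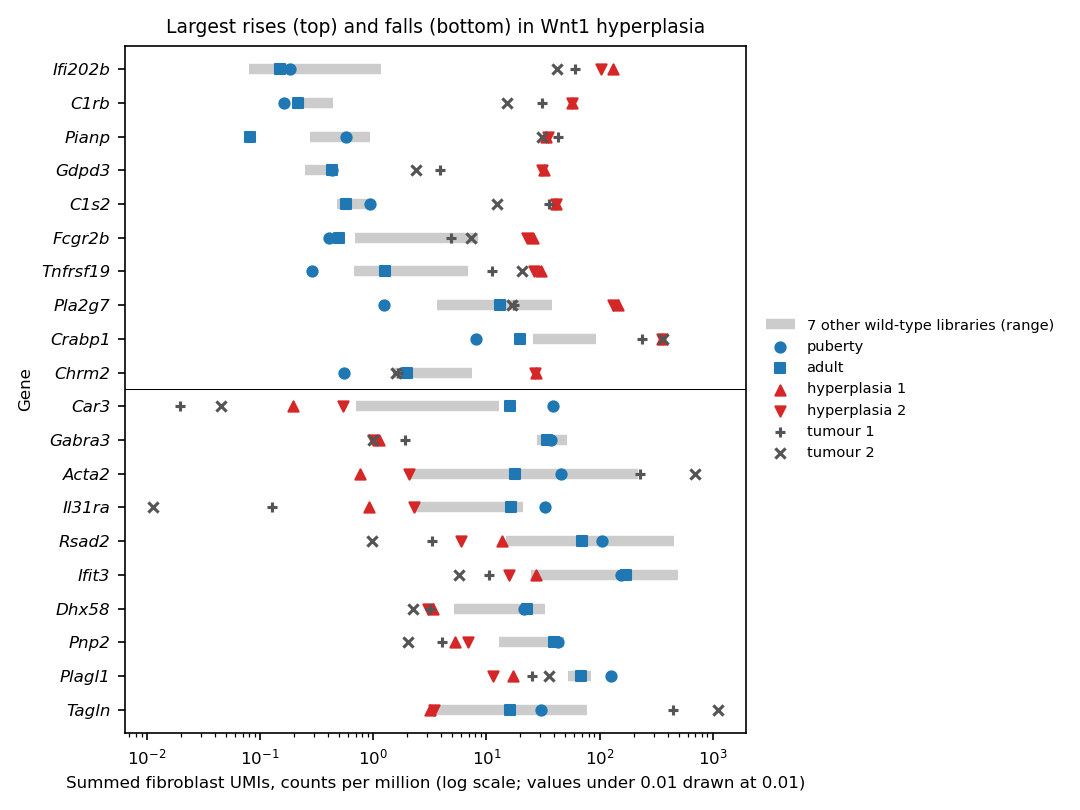
Level of the 10 genes with the largest rise (top) and the 10 with the largest fall (bottom), among called genes with at least 20 CPM in the higher group. Levels are in CPM on a log scale, with 1 symbol per library and a grey bar for the range of the 7 other wild-type libraries. All 10 rises lie to the right of the grey bar in both hyperplasia libraries; among the falls, Acta2, Tagln and Ifit3 touch or enter it.

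Among called genes with at least 20 CPM in the higher group, the largest rises were Ifi202b, C1rb, Pianp, Gdpd3, C1s2, Fcgr2b, Tnfrsf19, Pla2g7, Crabp1 and Chrm2. Ifi202b, an interferon-activated gene of the HIN-200 family that is known to be poorly expressed in C57BL/6 mice, had 0.185 and 0.149 against 131 and 103 CPM (log2 fold change 9.37 ± 0.60 SE, adjusted p = 0.00469). C1rb and C1s2, relatives of the complement proteases C1r and C1s, had 0.164 and 0.217 against 56.6 and 56.9 CPM and 0.944 and 0.569 against 40.9 and 41.4 CPM. Pianp, the gene of a neural membrane protein that binds the receptor PILR-alpha, had 0.575 and 0.0813 against 33.3 and 34.9 CPM. These 4 genes were also at 61.0 and 42.1, 31.1 and 15.3, 36.1 and 12.4 and 43.3 and 31.3 CPM in the tumours, which share the mixed background, and at most 1.16 CPM in any other wild-type library. C1rb, C1s2 and Ifi202b have close relatives in the genome, as do Ly6a and the Ifit, Oas and H2 genes, so their own levels are uncertain. A pair of receptors was nearly silent in the normal glands: Fcgr2b, the inhibitory Fc receptor, at 0.410 and 0.501 against 25.6 and 22.7 CPM (log2 fold change 5.65 ± 0.39 SE, adjusted p = 0.00469), and Chrm2, a muscarinic acetylcholine receptor, at 0.554 and 1.99 against 27.2 and 27.2 CPM (log2 fold change 4.52 ± 0.43 SE, adjusted p = 0.00721). In contrast to the 4 genes above, Chrm2 was at 1.65 and 1.59 CPM in the tumours and Gdpd3, a lysophospholipase D, at 3.92 and 2.40 CPM, with 0.431 and 0.433 in normal and 32.1 and 30.9 in hyperplasia.

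Largest among the falls was Car3 (carbonic anhydrase 3, abundant in adipocytes), at 38.5 and 16.1 CPM in normal and 0.195 and 0.538 CPM in hyperplasia (log2 fold change -6.19 ± 0.91 SE, adjusted p = 0.0173). It was 1 of 3 adipocyte genes of 11 tested that fell, although the sum of that list was higher in hyperplasia, as given above. Gabra3, a GABA receptor subunit, had 37.5 and 34.1 against 1.12 and 0.994 CPM (log2 fold change -5.12 ± 0.35 SE, adjusted p = 0.00469). Every wild-type library had at least 27.8 CPM while both tumours had 1.89 and 1.00 CPM. Il31ra, a subunit of the interleukin-31 receptor, had 32.7 and 16.5 against 0.920 and 2.28 CPM. The purine enzyme gene Pnp2 had 42.7 and 39.4 against 5.29 and 6.92 CPM, and the imprinted zinc-finger gene Plagl1 126 and 68.0 against 17.2 and 11.5 CPM. Acta2 (smooth muscle actin), the classic myofibroblast marker, had 45.7 and 17.8 against 0.761 and 2.07 CPM (log2 fold change -4.46 ± 0.95 SE, adjusted p = 0.0355). Tagln (transgelin) had 30.2 and 16.0 against 3.17 and 3.44 CPM (log2 fold change -2.75 ± 0.55 SE, adjusted p = 0.0319). For both, puberty was the highest of the 4 libraries. Of 12 myofibroblast markers 4 fell and none rose by limma-voom, edgeR, DESeq2 or an unadjusted p under 0.05 (median -1.26). With the 4 libraries alone, limma-voom called 6 falls and 1 rise of 11 tested. Myl9 and Adam12 were the others, at -1.30 ± 0.30 and -1.83 ± 0.34 on the log2 scale. The tumours had 228 and 698 CPM of Acta2, and the other wild-type libraries ran from 2.03 to 219 CPM. The summed pericyte list, given above, was also highest in puberty, and its part in these falls was not tested. The myofibroblast calls numbered 0 without the adult, 0 without puberty, and 0 and 0 without hyperplasia 1 or 2, and 1 with all 9 wild-type libraries as reference.

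Wnt pathway genes were taken by role. Of 17 tested ligands and R-spondins 5 rose and 1 fell. Wnt4, the ligand known for progesterone-driven branching when made by epithelium, had 3.04 and 3.78 CPM in normal and 18.6 and 17.0 CPM in hyperplasia (log2 fold change 2.34 ± 0.23 SE, adjusted p = 0.00747). No wild-type library exceeded 5.60 CPM and the tumours had 3.52 and 2.52 CPM. Wnt11, a ligand mostly tied to non-canonical signalling, had 8.41 and 9.75 against 29.5 and 28.9 CPM (log2 fold change 1.64 ± 0.15 SE, adjusted p = 0.00671). Wnt9a had 4.95 and 4.10 against 8.04 and 8.84 CPM, a small rise (log2 fold change 0.89 ± 0.19 SE, adjusted p = 0.0351) beside 42.9 and 44.5 CPM in the tumours. Placebo 1 and 2, of 9 weeks like the adult, had 32.2 and 34.0 CPM of Wnt11 and 10.9 and 10.4 CPM of Wnt9a. These lay above both hyperplasia libraries, while Wnt4, at 5.60 and 3.72 CPM in placebo 1 and 2, lay below both. R-spondins amplify Wnt signals by keeping receptors at the surface: Rspo3 rose, from 2.09 and 2.26 to 9.58 and 5.79 CPM, and Rspo1 fell, from 8.46 and 6.97 to 3.68 and 2.43 CPM. The stromal ligands Wnt2 and Wnt5a had 80.9 and 85.9 against 61.3 and 93.0 CPM and 74.7 and 43.7 against 66.8 and 54.6 CPM, with adjusted p = 0.653 and 0.93. Ligands called higher numbered 2 without the adult, 0 without puberty, and 0 and 0 without hyperplasia 1 or 2, and 1 with all 9 wild-type libraries as reference, where Wnt11, Rspo3 and Wnt9a overlap wild-type levels of up to 34.0, 6.92 and 11.4 CPM. The fifth called higher, Wnt16, had 1.87 and 1.10 against 4.27 and 4.61 CPM, with other wild-type libraries at up to 4.47 CPM.

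Among 18 receptors 4 rose and none fell by limma-voom, edgeR, DESeq2 or an unadjusted p under 0.05. The co-receptor gene Lrp5 had 4.00 and 3.79 against 15.0 and 10.6 CPM, and Ror1 had 8.33 and 12.7 against 26.4 and 20.3 CPM, with log2 fold changes of 1.66 ± 0.24 and 1.10 ± 0.23. Fzd1 had 28.8 and 43.1 against 69.8 and 67.6 CPM and Ryk had 65.2 and 74.3 against 119.7 and 129 CPM (log2 fold changes 0.93 ± 0.19 and 0.80 ± 0.16). Of 9 tested antagonists 3 rose: Dkk3, from 11.2 and 6.61 to 28.1 and 24.2 CPM, Tpbg, from 27.8 and 49.3 to 90.7 and 80.3 CPM, and Kremen1, a receptor for DKK proteins, from 21.5 and 23.8 to 43.0 and 37.2 CPM. In all of these receptors and antagonists both hyperplasia libraries were above both normal ones, and at least 1 other wild-type library reached or passed the lower hyperplasia level. For each receptor a placebo library, of 9 weeks like the adult, did so. Placebo 1 and 2 had 13.6 and 12.0 CPM of Lrp5 and 26.5 and 20.6 CPM of Ror1. They had 100 and 55.2 CPM of Fzd1 and 123 and 111 CPM of Ryk. For the antagonists they had 20.4 and 21.3 CPM of Dkk3, 87.4 and 64.2 CPM of Tpbg and 38.8 and 35.5 CPM of Kremen1. With all 9 wild-type libraries as reference none of these 7 passed; without the adult 1 antagonist was called higher and 1 lower, and without any other of the 4 libraries no gene of either list was called.

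Of 17 Wnt target genes tested 7 rose, and none fell by limma-voom (2 at an unadjusted p under 0.05, 1 by edgeR, 2 by DESeq2 and 2 with the 4 libraries alone), with a median of 0.56. Axin2, the scaffold of the beta-catenin destruction complex and a feedback target of the canonical pathway (chromosome 11, 108920349 to 108950783), had 4.23 and 7.12 CPM in normal and 25.8 and 24.5 CPM in hyperplasia (log2 fold change 2.12 ± 0.40 SE, adjusted p = 0.0288). All 9 wild-type libraries were at or below 14.7 CPM. The tumours had 13.2 and 6.47 CPM. Tnfrsf19 (TROY), a receptor of the tumour necrosis factor family and a beta-catenin target (chromosome 14, 60963875 to 61046490), had 0.287 and 1.27 against 30.4 and 26.3 CPM (log2 fold change 5.34 ± 0.67 SE, adjusted p = 0.0117). Nkd2, an inhibitor that binds Dishevelled, had 4.56 and 9.86 against 43.7 and 36.6 CPM (log2 fold change 2.47 ± 0.31 SE, adjusted p = 0.0117). Its relative Nkd1 had 7.86 and 6.73 against 18.5 and 16.8 CPM (log2 fold change 1.26 ± 0.19). Znrf3, a ligase that clears Frizzled receptors, had 1.99 and 2.59 against 8.02 and 7.46 CPM (log2 fold change 1.70 ± 0.26 SE, adjusted p = 0.0183). The mesenchymal transcription factor gene Twist1 had 88.4 and 98.3 against 301 and 304 CPM (log2 fold change 1.66 ± 0.15 SE, adjusted p = 0.00671). Other wild-type libraries ran from 71.1 CPM of Twist1 in pregnancy to 285 CPM in placebo 1, just below hyperplasia, with 206 CPM in placebo 2. For 5 of the 7, Tcf7 and Nkd1 being the exceptions, hyperplasia was outside all 9 wild-type libraries. The list was not uniform: Ccnd1 and Ccn4, both also known targets, gave -0.75 ± 0.24 and -1.05 ± 0.29 on the log2 scale (adjusted p = 0.0792 and 0.0604), and Lef1, a TCF/LEF factor and target, was near 0 in all 4 libraries (0.0205 and 0 against 0 and 0.0276 CPM). Called targets numbered 2 without the adult, 0 without puberty, and 0 and 0 without hyperplasia 1 or 2, and 3 with all 9 wild-type libraries as reference.

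**Figure D3:**
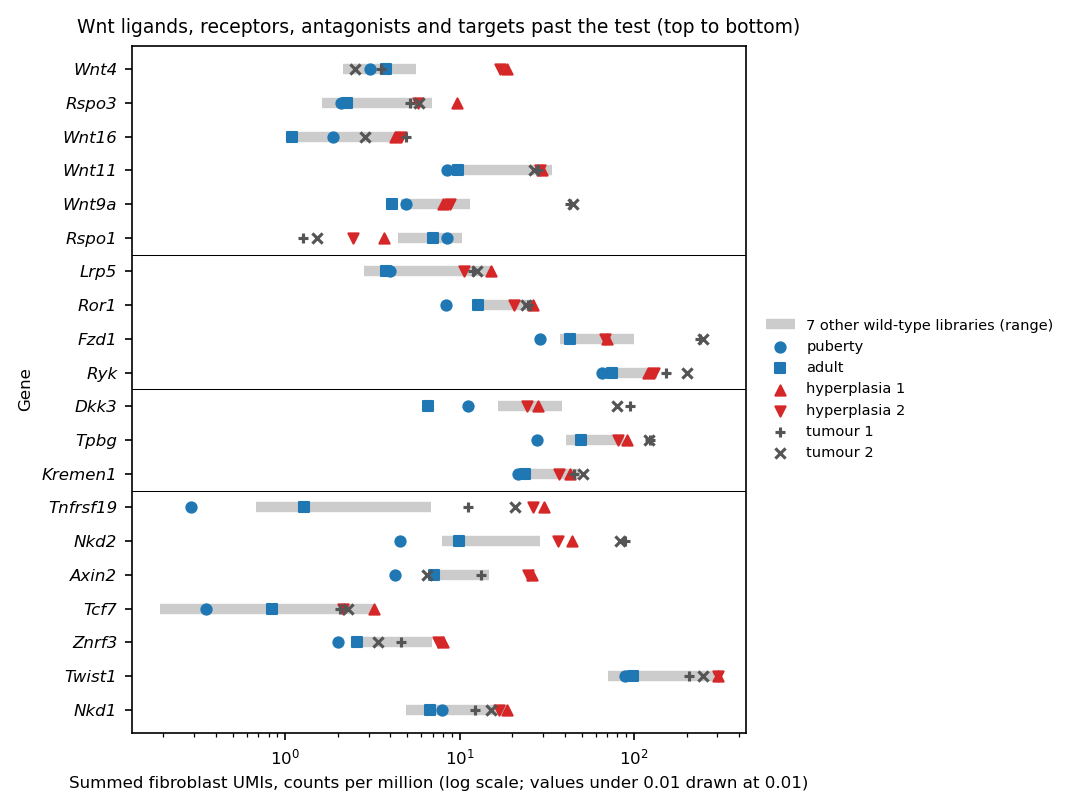
Level in CPM (log scale) of the Wnt ligands, receptors, antagonists and targets that passed the test, in blocks from top to bottom, with 1 symbol per library and a grey bar for the range of the 7 other wild-type libraries. Wnt4, Tnfrsf19, Nkd2, Axin2, Znrf3 and Twist1 have both hyperplasia symbols to the right of the grey bar, and Rspo1 has both to its left.

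Promoter sequence was read for the target list, of which 7 members rose. The TCF/LEF-type word CTTTGAT, searched on both strands (ATCAAAG on the other) in windows from 250 bases before to 50 after each RefSeq transcript start (GRCm38.p6), was in 2 of the 14 target genes with a window (14.3%) and in 4.29% of all 27025 genes. Of the 6 called targets with a window, Tnfrsf19 was the 1 that held it. Its 220 bases before a RefSeq transcript start, chr14:61037988-61038207 on the minus strand, are shown with the word in capitals. This stretch lies inside the gene span given above, so that start is an internal one.
Tnfrsf19: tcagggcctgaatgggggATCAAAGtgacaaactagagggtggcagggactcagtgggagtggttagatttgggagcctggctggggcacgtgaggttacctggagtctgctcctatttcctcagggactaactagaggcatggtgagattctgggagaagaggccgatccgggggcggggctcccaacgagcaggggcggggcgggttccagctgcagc
The match is a description of these letters and not evidence of binding.

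Of 31 BMP and TGF-beta genes 7 rose and 1 fell (median 0.28). Bmp4, a BMP ligand (chromosome 14, 46383520 to 46390669), had 5.23 and 3.98 CPM in normal and 60.2 and 64.0 CPM in hyperplasia (log2 fold change 3.76 ± 0.51 SE, adjusted p = 0.0137). The other wild-type libraries reached 32.9 CPM and the tumours were at 7.88 and 2.46 CPM. Known BMP response genes rose as well: Id1 had 32.7 and 45.0 against 168 and 218 CPM (log2 fold change 2.28 ± 0.22 SE, adjusted p = 0.00721). Id3 had 491 and 466 against 1089 and 1021 CPM (log2 fold change 1.10 ± 0.16 SE, adjusted p = 0.0171). The inhibitory Smad6 had 2.73 and 3.20 against 9.58 and 9.25 CPM (log2 fold change 1.62 ± 0.35 SE, adjusted p = 0.0355). Bmp4, Id1, Id3 and Smad6 were outside all 9 wild-type libraries. Bmp1, the procollagen C-proteinase, fell from 283 and 252 to 166 and 163 CPM. Tgfb1 was at 8.37 and 13.4 against 22.96 and 21.4 CPM (adjusted p = 0.0541). The BMP antagonist Grem1 was low, at 0.0205 and 0.0135 against 0.319 and 0.207 CPM (adjusted p = 0.165). Called rises numbered 1 without the adult, 0 without puberty, and 0 and 0 without hyperplasia 1 or 2, and 3 with all 9 wild-type libraries as reference.

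Of 32 growth factor ligands 6 rose, and none fell by limma-voom (9 at an unadjusted p under 0.05, 3 by edgeR and 7 by DESeq2). With the 4 libraries alone, limma-voom called 8 rises and 10 falls. Angpt2, a vessel-destabilising angiopoietin, had 4.82 and 6.77 against 37.8 and 29.2 CPM (log2 fold change 2.47 ± 0.23 SE, adjusted p = 0.00675). The heparin-binding growth factor midkine (Mdk) had 47.0 and 35.8 against 119 and 132 CPM. The vascular growth factors Vegfa and Vegfc had 69.9 and 62.3 against 116 and 108 CPM and 6.38 and 7.10 against 19.2 and 17.2 CPM. Other wild-type libraries reached 43.0 CPM of Angpt2, 172 CPM of Mdk, 138 CPM of Vegfa and 25.1 CPM of Vegfc, above both hyperplasia libraries for each. Ligands that support ductal epithelium did not pass: Fgf10 had 35.3 and 38.7 against 26.4 and 19.6 CPM (adjusted p = 0.0512), Igf1 402 and 231 against 193 and 131 CPM (adjusted p = 0.0856), Fgf7 44.6 and 39.7 against 45.9 and 46.6 CPM and Hgf 14.7 and 29.2 against 45.0 and 25.5 CPM. Of 11 Hedgehog genes, the co-receptor gene Gas1 alone rose (218 and 212 to 416 and 372 CPM, with up to 428 CPM in other wild-type libraries), while the pathway's readout Gli1 had 3.14 and 2.37 against 3.45 and 2.10 CPM (adjusted p = 0.951). Among the growth factors 1 was called without the adult and 0 without any of the other 3 libraries, and 0 with all 9 wild-type libraries as reference. In these fits 0 Hedgehog genes were called, and 0 had an unadjusted p under 0.05 against the 9 wild-type libraries.

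Of 29 collagen chains 2 rose, Col13a1 (1.99 and 11.8 to 30.6 and 29.3 CPM) and Col7a1 (2.34 and 3.62 to 13.1 and 10.7 CPM). Col13a1 lay at the threshold (adjusted p = 0.0498), and edgeR called 1 rise. Other wild-type libraries reached 44.5 CPM of Col13a1 and 24.6 CPM of Col7a1, above both hyperplasia libraries for each. No chain fell by limma-voom or edgeR (6 at an unadjusted p under 0.05, 7 by DESeq2, 2 with the 4 libraries alone and 4 with all 9 wild-type libraries as reference). Col1a1, the main fibrillar chain, had 14043 and 4074 CPM in normal and 3589.6 and 2517 CPM in hyperplasia (log2 fold change -1.38 ± 0.56 SE, adjusted p = 0.137). Puberty stood far above the other 3 libraries. The 7 other wild-type libraries ran from 6155 to 9437 CPM, above the adult. Both hyperplasia libraries lay below all 9 wild-type libraries. Of 32 crosslinking and remodelling enzymes 4 rose and 6 fell. Mmp23 was 1 of the falls. Serpinh1 (the collagen chaperone HSP47) fell from 2548 and 2188 to 1011 and 1027 CPM (log2 fold change -1.25 ± 0.26 SE, adjusted p = 0.035). The procollagen N-proteinase Adamts2 fell from 467 and 359 to 176 and 167 CPM (log2 fold change -1.30 ± 0.22 SE, adjusted p = 0.0234), the prolyl hydroxylase subunit P4ha2 from 123 and 90.1 to 40.7 and 43.1 CPM, the enhancer Pcolce from 987 and 653 to 354 and 338 CPM, and the elastin crosslinker Loxl1 from 774 and 828 to 385 and 417 CPM. All 5 were lower in both hyperplasia libraries than in both normal libraries. The rises were Mmp11 (stromelysin 3), from 5.48 and 6.50 to 27.5 and 32.5 CPM, cathepsin K (Ctsk), from 284 and 179 to 483 and 576 CPM, and Mmp3 and Lox as above. Of 41 glycoproteins and proteoglycans 4 rose and 1 fell, beside 7.70% and 6.29% over all genes tested. The matricellular genes Ccn1, Ccn2 and Ccn3 rose, with log2 fold changes of 1.46 ± 0.17, 2.12 ± 0.22 and 2.58 ± 0.38. The calcification inhibitor Mgp rose (502 and 259 to 1092 and 1008 CPM), and the microfibril gene Mfap4 fell (168 and 98.4 to 61.7 and 42.2 CPM). Other wild-type libraries reached 166 CPM of Ccn2 and 4534 CPM of Mgp, above both hyperplasia libraries. For Ccn1 and Ccn3 they reached 1006 and 74.5 CPM, above the lower hyperplasia library. Mfap4 lay below all 9 wild-type libraries. Of 16 basement membrane genes 1 rose and 1 fell, near the shares over all genes tested. The laminin chain Lamc3 rose from 2.79 and 16.1 to 66.9 and 53.6 CPM. Perlecan (Hspg2) fell from 423 and 415 to 289 and 288 CPM. No enzyme was called when any 1 of the 4 libraries was left out. With all 9 wild-type libraries as reference 0 enzymes rose and 3 fell, and 0 glycoproteins rose and 4 fell (1 and 2 without the adult). The basement membrane calls were not made by edgeR or with all 9 wild-type libraries as reference, and Lamc3 reached 52.4 CPM in another wild-type library.

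Many genes of the interferon-induced list were lower in hyperplasia, though the list leaves out Ifi202b, which rose as given above. Of 41 tested 21 fell and none rose by limma-voom (30 and 1 at an unadjusted p under 0.05, with 20 falls by edgeR and 26 by DESeq2, and 0 rises by either; 33 and 1 with the 4 libraries alone), and the median was -1.35. Type I interferon drives these genes through the ISGF3 complex, which binds an element built from GAAA repeats. Rsad2 (viperin), an antiviral enzyme (chromosome 12, 26442746 to 26456452), had 105 and 70.0 CPM in normal and 13.8 and 5.92 CPM in hyperplasia (log2 fold change -3.32 ± 0.52 SE, adjusted p = 0.0202). Isg15, a ubiquitin-like modifier, had 376 and 374 against 125 and 83.5 CPM (log2 fold change -1.91 ± 0.25 SE, adjusted p = 0.0125), and Ifit3, an RNA-binding effector, 156 and 169.7 against 27.6 and 15.7 CPM (log2 fold change -3.01 ± 0.36 SE, adjusted p = 0.0111). Both normal libraries were above both hyperplasia libraries for all 3. The RNA sensor gene Dhx58 (LGP2) and the 2-5A synthetase genes Oas1a and Oas2 fell: Dhx58 had 21.5 and 22.6 against 3.36 and 3.07 CPM, Oas1a 13.4 and 22.5 against 1.40 and 1.82 CPM and Oas2 15.5 and 15.7 against 2.41 and 0.911 CPM. Irf7, the factor that amplifies the response, had 190.3 and 143 against 35.0 and 30.1 CPM (log2 fold change -2.39 ± 0.23), and the membrane tether Bst2 526 and 431 against 151 and 156 CPM (-1.67 ± 0.17). Ifi27l2a, a mitochondrial interferon-induced gene, had 2212 and 1868 against 362 and 391 CPM (-2.47 ± 0.53). Irf9, a subunit of ISGF3, had 45.9 and 52.7 against 57.8 and 42.2 CPM and did not pass (adjusted p = 0.944). Ifit1, at 361 and 221 against 134 and 38.4 CPM, and the GTPase Irgm1, at 45.7 and 32.7 against 329 and 94.0 CPM, did not pass either (adjusted p = 0.191 and 0.107); their 2 hyperplasia libraries differed widely.

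The level of these genes varied among wild-type glands. The other wild-type libraries ran from 14.8 to 457 CPM for Rsad2 and from 74.6 to 989.5 CPM for Isg15, and the summed list ran from 3652 to 15083 CPM in them, against 8517 and 8531 CPM in puberty and the adult and 3812 and 3287 CPM in hyperplasia 1 and 2. With all 9 wild-type libraries as reference, 2 genes of the list were called lower. Counts called lower were 9 without the adult, 2 without puberty, and 0 and 0 without hyperplasia 1 or 2. Genes called and outside all 9 wild-type libraries numbered 10, among them Rsad2, Dhx58, Oas1a, Oas2 and Bst2.

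**Figure D4:**
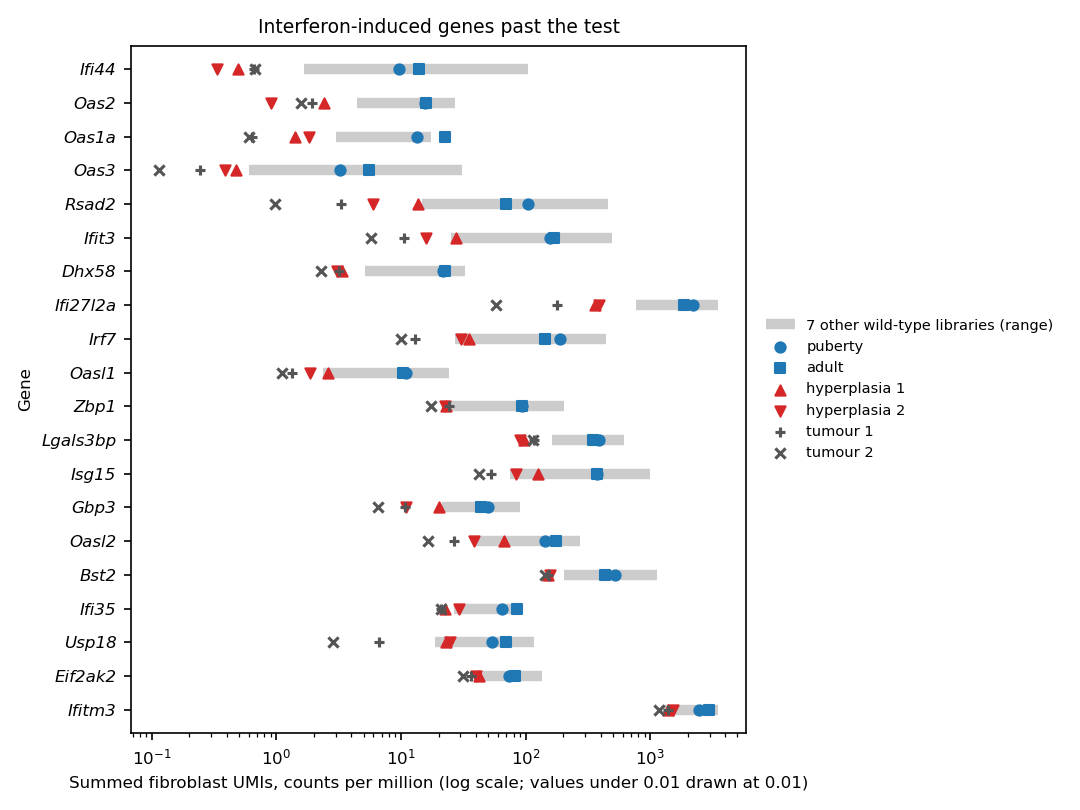
Level in CPM (log scale) of 20 of the 21 interferon-induced genes that fell, with 1 symbol per library and a grey bar for the range of the 7 other wild-type libraries. Puberty and adult lie to the right of both hyperplasia libraries in every row, and the grey bars are wide, for Rsad2 from 14.8 to 457 CPM.

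The promoters of 4 of the fallen genes are printed because they carry the repeat that ISGF3 recognises. A word of GAAA, any 2 bases and GAAA was searched on both strands (TTTC, any 2 bases and TTTC on the other), overlapping matches included, in the same RefSeq windows. It was in 20 of the 33 list genes with a window (60.6%), in 9 of the 15 fallen ones, and in 3.99% of all genes. Each line gives the 220 bases before the transcript start, 5′ to 3′ on the gene's strand in GRCm38.p6, with matches in capitals: Isg15 at chr4:156200819-156201038 (minus strand), Rsad2 at chr12:26456453-26456672 (minus strand), Ifit3 at chr19:34583309-34583528 (plus strand) and Bst2 at chr8:71537473-71537692 (minus strand).
Isg15: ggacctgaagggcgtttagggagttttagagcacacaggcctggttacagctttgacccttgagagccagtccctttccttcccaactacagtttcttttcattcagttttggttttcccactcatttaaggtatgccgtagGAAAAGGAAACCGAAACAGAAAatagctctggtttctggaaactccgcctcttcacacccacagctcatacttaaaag
Rsad2: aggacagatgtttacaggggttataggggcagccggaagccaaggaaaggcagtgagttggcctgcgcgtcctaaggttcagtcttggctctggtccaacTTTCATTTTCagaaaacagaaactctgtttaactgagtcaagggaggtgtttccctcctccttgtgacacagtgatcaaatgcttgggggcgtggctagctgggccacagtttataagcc
Ifit3: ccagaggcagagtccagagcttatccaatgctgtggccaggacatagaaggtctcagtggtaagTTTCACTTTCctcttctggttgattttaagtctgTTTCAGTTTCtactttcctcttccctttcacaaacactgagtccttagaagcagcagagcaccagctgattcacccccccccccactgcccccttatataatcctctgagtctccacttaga
Bst2: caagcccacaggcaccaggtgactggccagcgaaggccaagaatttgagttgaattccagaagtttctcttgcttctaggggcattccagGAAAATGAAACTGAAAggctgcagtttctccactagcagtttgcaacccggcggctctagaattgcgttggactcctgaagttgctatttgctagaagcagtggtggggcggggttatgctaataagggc
Isg15 holds 3 overlapping copies that begin 78, 72 and 66 bases before the start, Bst2 holds 2 (130 and 124), Ifit3 holds 2 separate ones (156 and 122) and Rsad2 holds 1 (120). The other 11 of the 20 list genes that hold the word were not called.

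Called genes of antigen presentation and complement were mostly higher. Of 20 MHC class I genes 7 rose and 1 fell. Of these 20 genes 10 had a positive log2 fold change, and the median was 0.12. H2-D1, a classical class I chain, had 618 and 474 against 1659.9 and 1353 CPM (log2 fold change 1.43 ± 0.23 SE, adjusted p = 0.0212). The non-classical H2-T23 (Qa-1) had 25.8 and 27.8 against 132 and 117 CPM (log2 fold change 2.17 ± 0.14 SE, adjusted p = 0.00469). The peptide transporter subunit Tap2 had 15.6 and 17.4 against 49.9 and 48.0 CPM (log2 fold change 1.53 ± 0.13 SE, adjusted p = 0.00671). Other wild-type libraries reached 313 CPM of H2-T23 and 59.1 CPM of Tap2, above both hyperplasia libraries. For H2-D1 they reached 1655 CPM, above hyperplasia 2 and just below hyperplasia 1. Placebo 1 and 2 had 126 and 117 CPM of H2-T23. H2-K1, the other classical chain, had 869.5 and 664 against 887 and 640.5 CPM (-0.05 ± 0.25 on the log2 scale), and B2m, the shared light chain, 915 and 715 against 1942 and 1099 CPM (adjusted p = 0.149). The strains behind the groups carry different MHC haplotypes, and class I genes share sequence, and the part of this in the class I values was not tested. Among 20 complement genes 7 rose and 1 fell, with 13 positive log2 fold changes and a median of 0.58. Besides C1rb, C1s2 and C7, the lectin-pathway protease gene Masp1 had 1.74 and 3.20 against 36.7 and 28.4 CPM (log2 fold change 3.68 ± 0.33 SE, adjusted p = 0.00671). The main C1 subunits C1ra and C1s1 gave 0.12 ± 0.24 and 0.54 ± 0.34 on the log2 scale and C3 -0.17 ± 0.69. Called rises were 3 without the adult, 0 without puberty, and 0 and 0 without hyperplasia 1 or 2 for MHC class I and 2 without the adult, 0 without puberty, and 0 and 0 without hyperplasia 1 or 2 for complement, and 2 and 3 with all 9 wild-type libraries as reference.

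Chemokines and other inflammatory fibroblast genes had 4 of 17 higher, and none lower by limma-voom or edgeR (1 at an unadjusted p under 0.05, 1 by DESeq2 and 1 with the 4 libraries alone). Ccl11 (eotaxin) had 132 and 135 against 601 and 557 CPM (log2 fold change 2.08 ± 0.20 SE, adjusted p = 0.00721). Cxcl14 had 101 and 126 against 289 and 474 CPM, Ccl2 139 and 122 against 406 and 238 CPM, and Has2, a hyaluronan synthase, 40.5 and 50.7 against 87.6 and 103 CPM. Il6 was at 81.5 and 69.1 against 252 and 115 CPM (adjusted p = 0.141). Wild-type libraries outside the comparison reached 688 CPM for Ccl11, 1053 CPM for Ccl2 and 150 CPM for Has2, above both hyperplasia libraries. With these 7 libraries in the reference group none of the 4 passed and Ccl2 turned slightly negative, at -0.05. Without the adult 1 gene of the list was called higher, and without any of the other 3 libraries 0.

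Mki67, the standard marker of cycling cells, had 10.96 and 2.37 CPM in normal and 0.920 and 0.138 CPM in hyperplasia (log2 fold change -3.78 ± 1.35 SE, adjusted p = 0.102). Top2a had 14.9 and 3.28 against 1.12 and 0.331 CPM. Puberty was the highest library for both. Of 18 cell cycle genes 0 passed the limma-voom test, against 8 lower and 1 higher at an unadjusted p under 0.05, 3 lower by edgeR and 11 lower and 1 higher by DESeq2. With the 4 libraries alone, limma-voom called 7 lower and 1 higher. The median was -2.04. Of 18 inhibitors and p53 targets 3 rose. Cdkn2a, which encodes p16 and p19Arf (chromosome 4, 89274471 to 89294653), had 0.123 and 0.244 against 5.24 and 4.46 CPM (log2 fold change 4.63 ± 0.42 SE, adjusted p = 0.00671). Its neighbour Cdkn2b (p15) had 0.985 and 1.58 against 9.68 and 10.9 CPM (log2 fold change 2.96 ± 0.34 SE, adjusted p = 0.00966). The stress cytokine Gdf15 had 2.59 and 1.95 against 20.6 and 18.9 CPM (log2 fold change 3.13 ± 0.23 SE, adjusted p = 0.00553). All 3 were outside the 9 wild-type libraries, yet the hyperplasia levels of Cdkn2a and Cdkn2b were far below the 110.3 and 103 and 70.7 and 104 CPM of the tumours. Cdkn1a (p21), the main p53-induced inhibitor, had 467 and 573 against 571 and 806 CPM (adjusted p = 0.378). Of the inhibitor list the calls numbered 2 without the adult, 0 without puberty, and 0 and 0 without hyperplasia 1 or 2, and 3, with 1 fall, with all 9 wild-type libraries as reference.

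Of 28 immediate early and heat shock genes 9 were called higher in hyperplasia and 1, the chaperone gene Hsph1, lower (median 0.82). The other 18 were not called. Nr4a1 had 116 and 168 against 926 and 622 CPM (log2 fold change 2.41 ± 0.25 SE, adjusted p = 0.00864), Egr3 20.1 and 36.3 against 183 and 105 CPM, and the AP-1 subunit genes Junb and Fosb 1789 and 2216 against 5847 and 4608 CPM and 2231 and 3072 against 7438 and 5886 CPM. The summed list made up 31123 and 37786 CPM in puberty and the adult and 69143 and 58591 CPM in hyperplasia 1 and 2. These genes are also known to respond to tissue dissociation and sorting, and the sort differed between the groups; its part was not tested. Called rises numbered 1 without the adult, 0 without puberty, and 0 and 0 without hyperplasia 1 or 2, and 3 with all 9 wild-type libraries as reference.

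Of 15 hormone receptors and related genes 3 rose: Hsd11b1, which regenerates active glucocorticoid (34.8 and 92.0 to 315 and 325 CPM, with up to 335 CPM in other wild-type libraries), the mineralocorticoid receptor Nr3c2 (1.498 and 2.55 to 11.1 and 9.25 CPM) and the relaxin receptor Rxfp1 (0.410 and 0.406 to 2.99 and 2.43 CPM). Esr1 had 79.5 and 56.1 against 59.4 and 42.8 CPM (adjusted p = 0.445). Pgr, the progesterone receptor, had 43.5 and 41.1 CPM in normal but 2.62 and 27.7 CPM in the 2 hyperplasia libraries, which were far apart (adjusted p = 0.13). Of 22 retinoid genes 3 rose and 1 fell (median 0.04). The rises besides Crabp1 were Rarres1 (1.15 and 2.53 to 12.4 and 12.4 CPM) and the receptor gene Rara (11.3 and 13.3 to 24.7 and 29.2 CPM, with up to 28.3 CPM in other wild-type libraries). The fall was Aldh1a2, at 4.00 and 1.60 against 0.301 and 0.345 CPM. Stra6, the retinol uptake receptor, had 1.95 and 6.03 against 6.11 and 8.12 CPM (adjusted p = 0.208). Glycolysis and hypoxia genes had 3 of 23 higher and 2 lower, and 0 of 22 ribosomal protein genes passed by limma-voom or edgeR against 9 lower by DESeq2 and 6 with the 4 libraries alone (9 at an unadjusted p under 0.05; median -0.36). With all 9 wild-type libraries as reference no glycolysis or hypoxia gene passed (5 at an unadjusted p under 0.05), and 0 passed without any 1 of the 4 libraries. In the hormone and retinoid lists, 1 and 2 rises were called without the adult and 0 and 1 without puberty, and 0 without either hyperplasia library. With all 9 wild-type libraries as reference 2 rises were called in each.

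The effect of hyperplasia was then compared between progenitor-marker-high fibroblasts (at least 3 UMIs of Pi16, Dpp4, Sema3c, Anxa3 and Cd55 in 2000) and the remaining, marker-low ones. Marker-high cells made up 55.3% and 53.8% of normal and 27.0% and 33.0% of hyperplasia fibroblasts. Between 6.56% and 12.8% of cells had 2 or 3 of these UMIs and so lay next to the limit. Of 15588 genes, 264 (1.69%) had an effect that differed between the classes. Without puberty, hyperplasia 1 or hyperplasia 2 none did, and without the adult 10 did. Lox had 167 and 134 CPM in normal and 496 and 492 CPM in hyperplasia among marker-low cells, against 151 and 117 and 106 and 119 CPM among marker-high cells (difference of log2 effects -2.06 ± 0.14 SE, adjusted p = 0.00468). Cebpb rose in both classes and more in marker-low cells (3.35 and 4.52 on the log2 scale; difference -1.18 ± 0.14, adjusted p = 0.018), and so did Twist1 (1.10 and 2.06; adjusted p = 0.0187) and Wnt4 (1.07 and 2.54; adjusted p = 0.0214). For Crabp1 the effects were 3.74 and 4.31 and their difference did not pass (adjusted p = 0.676), nor did those of Axin2 (1.20 and 2.81; adjusted p = 0.081) and Rsad2 (-3.02 and -3.56; adjusted p = 0.69).

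**Figure D5:**
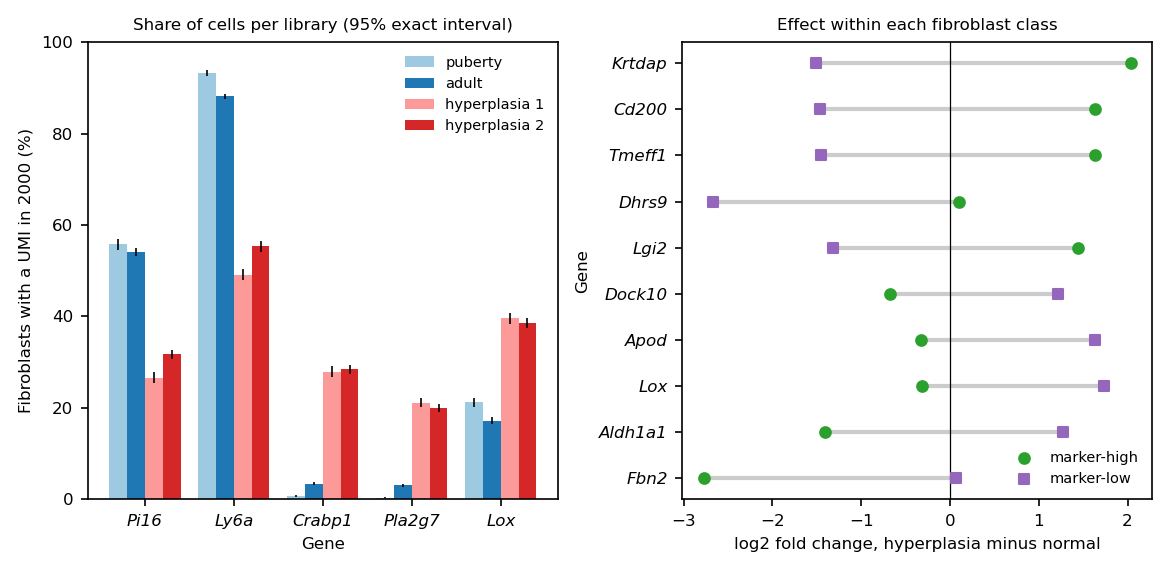
Left, percent of fibroblasts with a UMI of each gene after thinning to 2000 UMIs, by library, with 95% exact intervals (counting error only); right, log2 fold change of hyperplasia against normal within marker-high (circles) and marker-low (squares) fibroblasts for the 10 genes with the largest class differences. Pi16 and Ly6a are lower and Crabp1, Pla2g7 and Lox higher in both hyperplasia libraries, and the fold changes of Krtdap, Cd200, Tmeff1 and Lgi2 are above 0 in marker-high and below 0 in marker-low cells.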

How the data were processed

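Raw UMI counts per gene and barcode were deposited by the authors as filtered matrices made with Cell Ranger 6.1.2 (genome build mm10, per the submitters' processing notes), with no normalization. Each matrix holds 32285 genes. The fibroblast rule given above was applied with Python 3.11.15; doublets were not removed beyond it, and an alternative removed the highest Scrublet scores (scanpy 1.11.5) at 0.8% per 1000 barcodes. UMI counts were summed per library, since cells are not replicates, and tested with limma-voom (limma 3.58.1, TMM scaling, filterByExpr, R 4.3.3) in 1 fit of puberty and adult as normal virgin, hyperplasia 1 and 2 and tumour 1 and 2; edgeR 4.0.16 (quasi-likelihood test) and DESeq2 1.42.0 were alternatives, and all p-values were adjusted by Benjamini-Hochberg over all genes tested. The fit left 3 residual degrees of freedom. Library totals of 48727126 to 73843100 UMIs over fibroblasts set the counting precision. The labels number hyperplasia and tumour libraries as replicates, and libraries with the same number share an age. The paper describes the tumours and hyperplastic glands as paired, so equal numbers were taken as the same mouse. Deviations of these pairs correlated at 0.0912 over 16302 genes. For shares of cells and the classes, each cell was thinned to 2000 UMIs and shallower cells (439, 639, 86 and 247 in puberty, adult, hyperplasia 1 and 2) were left out. Class sums were fitted with library effects and class by group terms.

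The members and gene lists were chosen with earlier results of these data known. Named genes were the 10 largest called rises and 10 largest called falls with non-overlapping libraries and at least 20 CPM in the higher group, leaving out clone-like symbols; up to 5 called members of each of the 39 lists with at least 5 CPM; 12 genes named in every case; and the 5 largest class differences each way. Other list members are named with their values where the text describes the list; some called members are counted but not reported by name here. Gene positions came from GENCODE M21 (GRCm38), which gave one for 16284 of 16302 genes, and promoter sequences from RefSeq (GRCm38.p6). The test code was checked on simulated data. Alternatives covered the test, scaling, filters, cell limits, doublets, depth, the reference libraries, the replicate block and each library left out.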

Additional observations from a re-analysis of the deposited data

Results flagged for a closer look

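The effect of hyperplasia differed between progenitor-marker-high and marker-low fibroblasts for 264 genes by a test of the difference itself, and the 5 largest differences each way are given here as log2 effect in marker-high minus log2 effect in marker-low cells (limma-voom, each past an adjusted p of 0.05). More positive in marker-high cells were Krtdap, a keratinocyte differentiation-associated gene, at 3.36 ± 0.60 SE, the immune-regulatory surface gene Cd200 at 3.25 ± 0.55, Tmeff1 at 3.08 ± 0.53, the retinol dehydrogenase gene Dhrs9 at 2.79 ± 0.45 and Lgi2 at 2.73 ± 0.47. Krtdap had 40.2 and 36.9 CPM in normal and 105 and 269.8 CPM in hyperplasia among marker-high cells and 0.451 and 1.05 against 0.0795 and 0.675 CPM among marker-low cells. Its levels in the 2 hyperplasia libraries were unequal, and the summed keratinocyte list was 203 and 236 CPM in puberty and the adult and 212 and 576 CPM in hyperplasia 1 and 2. Cd200 had 19.1 and 16.2 against 58.5 and 54.8 CPM in marker-high cells and 10.7 and 3.39 against 2.31 and 1.69 CPM in marker-low cells. More negative in marker-high cells were the fibrillin gene Fbn2 at -2.85 ± 0.41, the retinaldehyde dehydrogenase gene Aldh1a1 at -2.70 ± 0.34, Lox at -2.06 ± 0.14, the lipocalin gene Apod at -1.97 ± 0.37 and Dock10 at -1.86 ± 0.20. Aldh1a1 fell from 129 and 158 to 56.0 and 56.2 CPM in marker-high cells, while marker-low cells had 57.9 and 73.8 against 142 and 172 CPM, so that its sum over all fibroblasts gave 0.06 ± 0.31 on the log2 scale. The classes were cut from 5 marker genes, which were left out of this fit, so none of the 10 could be one of them. With the class limit at 2 UMIs, 5 of the 10 no longer passed, and with a limit of 5 UMIs all 10 did. None of the 10 passed when puberty or either hyperplasia library was left out.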

How the results depend on the processing

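The 2280 calls became 4017 with DESeq2, 4810 with the 4 libraries alone and 842 with all 9 wild-type libraries as 1 reference group. Leaving out 1 library gave 1 to 4810 calls: 8 without puberty, 183 without the adult, 2 without hyperplasia 1, 1 without hyperplasia 2 and, added after seeing the data, 4810 and 4799 without tumour 1 or 2. With edgeR, other scaling, no filter, other cell limits, doublets removed or thinned cells there were 1579 to 2469. The replicate block by mouse (correlation 0.30, hyperplasia with tumour) gave 2310. Of 2280 called genes, all that could be fitted kept their direction, except 7 of 2280 with 9 wild-type libraries (2273 kept it). The genes were called from the compared libraries, so this is no independent check. The 264 class differences became 174 and 671 with class limits of 2 and 5 UMIs, and 0 to 10 without 1 library. Differences in share, hyperplasia minus normal in percentage points at 2000 UMIs, at 1000 UMIs and without thinning, were 26.1, 19.8 and 35.7 for Crabp1, 19.9, 14.4 and 25.0 for Lox, 18.9, 11.8 and 31.1 for Pla2g7 and -38.5, -44.0 and -27.7 for Ly6a; Pi16 had -25.8 and, at 1000 UMIs, -21.6. Log2 fold changes that reversed were Aldh1a1 (-0.010 with a mitochondrial limit of 5%; -0.061 to 0.19 without 1 library), Ccl2 (-0.045) and Pdgfra (-0.58) with 9 wild-type libraries, Lgi2 (-0.0092, thinned) and, without 1 library, Bmp5 (-1.05 to 0.36; 0.00062 without the adult), Fbn2 (-1.13 to 0.28), Pdgfra (-0.11 to 0.27) and Wnt1 (-0.48 to 0.79); the cause was not tested. Of these, Ccl2 alone had passed.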

Other observations

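Imprinted growth genes had 3 of 15 lower in hyperplasia and none higher by limma-voom, edgeR, DESeq2 or an unadjusted p under 0.05. Meg3, the maternally expressed long non-coding RNA of the Dlk1 locus, had 3103 and 1954 CPM in normal and 542 and 382 CPM in hyperplasia (log2 fold change -2.48 ± 0.33 SE, adjusted p = 0.0128). Plagl1, a regulator of other imprinted genes, and Grb10, an adaptor that restrains insulin signalling, had 126 and 68.0 against 17.2 and 11.5 CPM and 161 and 152 against 91.6 and 81.6 CPM. All 3 were below all 9 wild-type libraries. H19 had 82.4 and 21.0 against 8.76 and 7.79 CPM and did not pass (adjusted p = 0.07). Puberty was the highest of the 4 libraries for each of these genes, and the normal animals were the younger ones. Falls called in the list numbered 3 without the adult, 3 with all 9 wild-type libraries as reference and 0 without any other of the 4 libraries.

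The 2 hyperplasia libraries, from a mouse of 45 weeks and one of 17 weeks, were compared among listed genes with at least 20 CPM. Those that differed most were Pgr (2.62 and 27.7 CPM), Dmkn (53.9 and 199) and Krtdap (34.6 and 114), lower in hyperplasia 1. Higher in hyperplasia 1 were Thbs4 (94.6 and 14.3), Ptn (28.2 and 6.41), Col8a1 (22.1 and 5.48), Irgm1 (329 and 94.0), Ifit1 (134 and 38.4) and C1qtnf3 (21.7 and 6.24). With 1 library each these differences have no replicate check, and age, mouse and library cannot be told apart.

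C1rb, C1s2 and Pianp, 3 of the 10 largest rises with at least 20 CPM, lie within 432.803 kb of chromosome 6 (124570294 to 125003096, GRCm38). Of 23 tested genes in that interval, 7 rose and 3 fell, beside 7.70% and 6.29% over all genes tested. The interval was chosen after the values were seen, and the 7 include C1rb, C1s2 and Pianp, which defined it. Atn1 and Eno2 were among the other rises and Lpcat3 among the falls, with log2 fold changes of 1.77, 1.70 and -1.14. In the tumours, from the same 2 mice, C1rb, C1s2 and Pianp were at 31.1 and 15.3, 36.1 and 12.4 and 43.3 and 31.3 CPM. Whether the interval differs by strain between the groups was not tested.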
